A study of Rattus norvegicus with 15 samples.

Results

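Chemokines and their receptors were followed in mesentery artery and kidney cortex of rats. The genes were chosen by name alone: every gene of the deposited table whose symbol is that of a numbered ligand (Ccl, Cxcl, Cx3cl or Xcl) or of a numbered conventional receptor (Ccr, Cxcr, Cx3cr or Xcr). This gave 52 of 34357 genes, of which 34 encode ligands and 18 encode receptors. RNA had been sequenced from Dahl salt-sensitive (SS) rats, which become hypertensive when fed much salt. In the knockout rats 30.4 kb of noncoding DNA had been deleted from chromosome 2 (60825801 to 60856216, rn7), a segment matching a human haplotype, and the wildtype rats kept it. There were 4 knockout and 4 wildtype arteries and 4 knockout and 3 wildtype kidneys, all titled male. The question was which genes depend on the deleted segment. It holds 1 gene model of the table, listed at 0 in all 15 libraries, which leaves the genotype labels unchecked, and Ccl28 was the only chemokine gene on chromosome 2.

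Chemokines are small secreted or membrane-bound proteins that guide leukocytes along gradients and bind receptors coupled to inhibitory G proteins. Homeostatic ligands such as Ccl19, Ccl21, Cxcl12 and Cxcl13 are made constantly and place lymphocytes and progenitors in tissues, while inflammatory ligands such as Ccl2 and the interferon-induced Cxcl9, Cxcl10 and Cxcl11 appear with injury or infection. In arteries and kidneys of hypertensive animals the inflammatory group is known for recruiting monocytes and T cells.

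Levels are FPKM, fragments scaled by gene length and library size, so they may be compared between genes; the depth of the libraries is unknown. The summed FPKM was 285679 to 433477 in arteries and 376270 to 459847 in kidneys. Each tissue showed its markers: Acta2, an actin of smooth muscle, lay at 512 FPKM or more in each artery and at 18.7 FPKM or less in each kidney, and Slc34a1, a proximal tubule phosphate transporter, at 1.06 FPKM or less in each artery and 892 FPKM or more in each kidney. Adipocyte markers were present with the arteries, and 12 of 12 were called higher in artery, against 41.8% of all genes. Several libraries stood apart. Artery knockout 2 and artery wildtype 3 had summed B and plasma cell markers of 170 and 264 FPKM, against 9.09 to 68.3 in the other arteries. In artery wildtype 4 haemoglobin made up 33.0% of the summed FPKM, and artery wildtype 1 held 52.7 FPKM of intestinal epithelial markers. The library labelled kidney wildtype 3 held 81.1 FPKM of Xist and the Y-linked Eif2s3y was listed at 0 there, against its male title. No label says whether libraries came from separate animals, so p-values describe only the spread between these libraries.

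Of the 52 genes, 30 were above 0 in all 15 libraries and 0 were at 0 in all of them. A few ligands made up most of the chemokine RNA. In artery the summed level was led by Ccl21, a ligand of lymphatic vessels and lymph nodes, with 38.2% of the sum, and by Cxcl12, a stromal ligand that retains progenitors and lymphocytes, with 24.9%. Ccl21 averaged 136 ± 37.6 FPKM (SD, n = 8) and Cxcl12 88.3 ± 18.4 FPKM (SD, n = 8), and the libraries of these neighbours in rank overlapped. Cxcl16, a membrane-bound ligand and scavenger of oxidised lipids, came next at 21.8 ± 3.81 FPKM (SD, n = 8), below Cxcl12 in each artery. Then followed Ccl6, a rodent ligand of myeloid cells, at 15.3 ± 3.90 FPKM, Cxcl13, which draws B cells, at 9.68 ± 16.3 FPKM with a median of 1.41 FPKM, and Ccl24, which draws eosinophils, at 7.84 ± 1.75 FPKM (SD, n = 8 each). Cxcl10 at 7.35 ± 3.44 FPKM and Cxcl14, a ligand of epithelia and fat, at 7.29 ± 3.38 FPKM completed the 8 most abundant (SD, n = 8 each), and the libraries of neighbours from Cxcl16 downwards overlapped. The place of Cxcl13 rested on wildtype 3 with 45.8 FPKM: without that library, a choice made after seeing the data, its mean was 4.52 ± 7.77 FPKM (SD, n = 7) and Ccl2 stood among the 8 in its stead.

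In kidney Cxcl12 led with 77.9 ± 14.8 FPKM (SD, n = 7), 38.3% of the chemokine sum, followed by Cxcl16 with 52.7 ± 7.72 FPKM (SD, n = 7) and 25.9%. Cx3cl1, the membrane-bound fractalkine, averaged 16.5 ± 2.90 FPKM (SD, n = 7), below Cxcl16 and above Cxcl11 in each kidney. Cxcl11 averaged 6.90 ± 1.58 FPKM and Ccr10, the receptor of the epithelial ligands Ccl27 and Ccl28, averaged 6.62 ± 0.630 FPKM (SD, n = 7 each). Ccl6 at 5.46 ± 1.64 FPKM, Cxcl10 at 4.30 ± 1.08 FPKM and Cx3cr1, the fractalkine receptor of monocytes and resident macrophages, at 3.36 ± 0.940 FPKM came after them (SD, n = 7 each). Ccr10 thus had the highest listed mean of the receptors in kidney. Its gene model overlaps that of Cntnap1 on the other strand over 1139 of its 2438 bases. Cntnap1 averaged 7.48 FPKM in kidney and 2.85 FPKM in artery, and its reads cannot be told from those of Ccr10 there. In artery Cxcr4, the Cxcl12 receptor, had the highest mean of the receptors at 5.54 ± 3.27 FPKM and Ccr1 came next at 5.28 ± 1.43 FPKM (SD, n = 8 each). The libraries of these receptors overlapped, the medians were 3.98 FPKM for Cxcr4 and 5.18 FPKM for Ccr1, and without wildtype 3 the means were 4.69 FPKM for Cxcr4 and 5.18 FPKM for Ccr1.

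**Figure D1:**
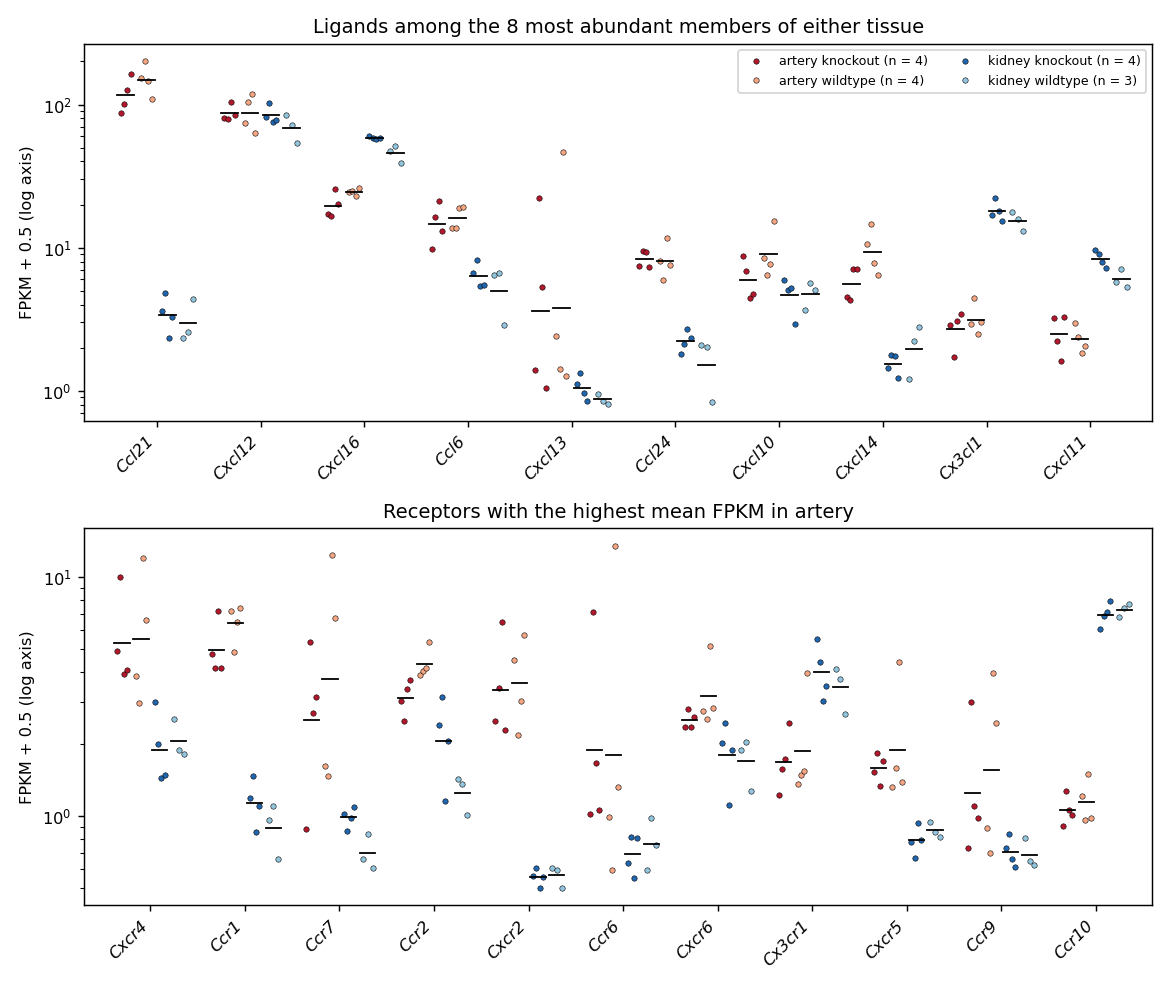
Level of each library as FPKM + 0.5 on a log axis, for the ligands among the 8 most abundant genes of either tissue (top) and for receptors in order of their mean in artery (bottom). Points are libraries (4 artery knockout, 4 artery wildtype, 4 kidney knockout, 3 kidney wildtype) and bars are means on the log scale. Ccl21 lies between 86.1 and 201 FPKM in arteries and between 1.82 and 4.31 FPKM in kidneys, while Cxcl12 overlaps between the tissues.

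Artery differed from kidney in most chemokine genes that were abundant enough to test. The fit was made with limma on log2(FPKM + 0.5) over every gene with a mean of at least 0.5 FPKM, with Benjamini-Hochberg adjustment over all genes and a call at an adjusted p under 0.05; a fold change on this scale understates the change of low genes. Of the 52 genes, 34 passed the filter, and 30 were called, 21 higher and 9 lower in artery. Over all 16856 genes tested, 77.0% were called, 41.8% higher and 35.2% lower. The median difference was 1.03 over the 34 chemokine genes and 0.11 over all genes, and median-of-ratios scaling moved the median of all genes to -0.02. Groups that did not overlap at all numbered 12 genes higher in artery (25.5% of all genes) and 6 lower (24.4% of all genes). Here as throughout, fewer cells of a type and less RNA per cell cannot be told apart in bulk tissue.

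**Figure D2:**
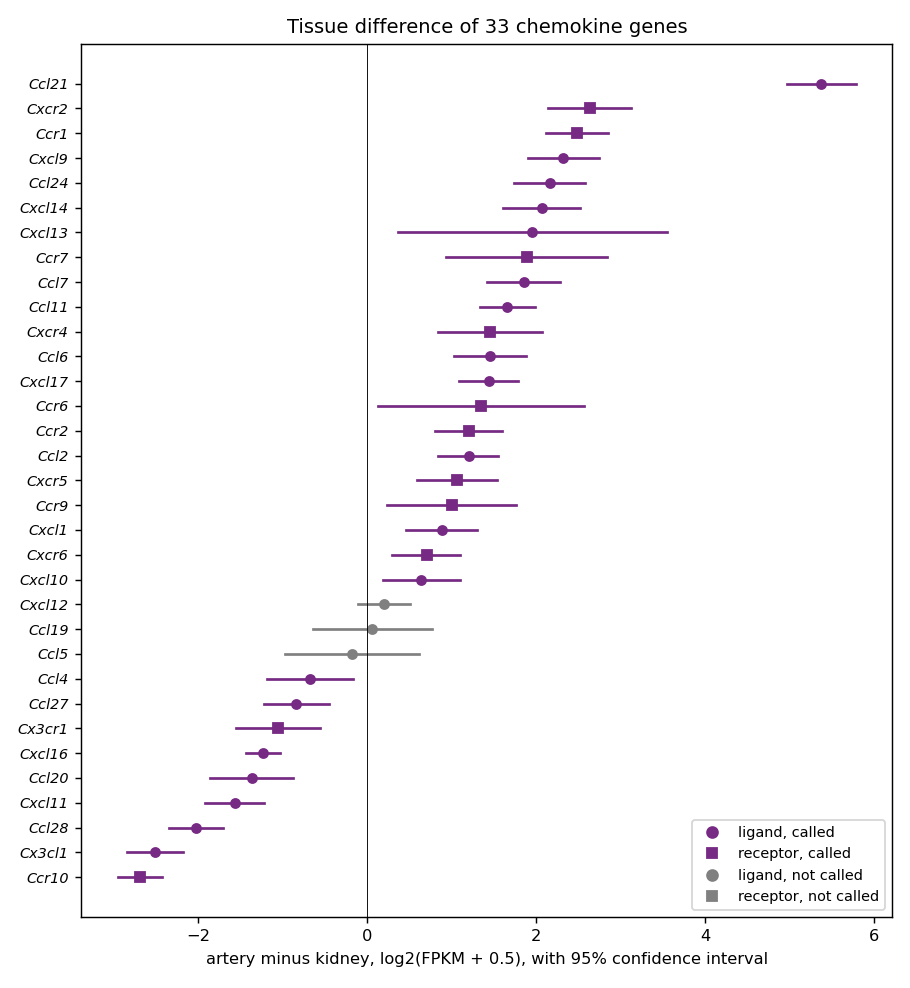
Artery minus kidney difference of 33 of the chemokine genes tested, as log2(FPKM + 0.5) with the 95% confidence interval from limma over 8 arteries and 7 kidneys. Circles are ligands, squares receptors, and grey marks the 3 plotted genes that were not called. The values run from -2.69 for Ccr10 to 5.37 for Ccl21.

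Among the homeostatic ligands of lymphoid tissue, Ccl21 was far higher in artery while its neighbour Ccl19 was not. Ccl21 and Ccl19 both bind Ccr7 and lie close together on chromosome 5 (56980557 to 56981661 and 56963364 to 56965308, minus strand, rn7). The upstream windows of this pair are shown because the genes are close together and differed in their tissue pattern. Each is 250 bases ending at the RefSeq gene start, 5′ to 3′ on the gene's strand, from RefSeq on the build GRCr8 (chr5:61761165-61761414 and chr5:61777516-61777765, both minus strand); capitals mark matches to the motifs described with the interferon-induced ligands.
Ccl19: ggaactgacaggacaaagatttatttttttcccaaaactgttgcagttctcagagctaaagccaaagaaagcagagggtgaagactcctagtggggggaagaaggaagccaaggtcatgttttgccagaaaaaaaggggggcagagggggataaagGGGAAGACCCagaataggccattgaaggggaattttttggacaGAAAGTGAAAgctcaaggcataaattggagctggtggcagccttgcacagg
Ccl21: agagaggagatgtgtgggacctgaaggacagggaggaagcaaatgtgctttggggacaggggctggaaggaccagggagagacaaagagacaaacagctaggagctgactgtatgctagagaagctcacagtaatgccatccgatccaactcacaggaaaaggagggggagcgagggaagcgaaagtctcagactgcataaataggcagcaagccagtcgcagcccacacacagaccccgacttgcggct
Ccl21 ran from 86.1 through a median of 136 to 201 FPKM in arteries, against 1.82, 2.79 and 4.31 FPKM in kidneys. The lowest artery stood well above the highest kidney. The difference was 5.37 on the log2 scale (SE 0.19, 41.4-fold, limma adjusted p = 5.67e-13). Ccl19 ran from 0.403 through 1.14 to 5.44 FPKM in arteries, against 0.8294, 1.19 and 1.95 FPKM in kidneys, and the tissues overlapped. Its difference was 0.06 (95% confidence interval -0.64 to 0.76, limma adjusted p = 0.868). The Ccl19 window holds a match to each of 2 motifs, and the Ccl21 window holds none of the motifs searched. Beside Ccl21, the summed markers of lymphatic endothelium, which is known to make this ligand, were 101 to 154 FPKM in arteries and 13.3 to 16.2 FPKM in kidneys. Of these markers 6 of 7 were called higher in artery, against 41.8% of all genes. Their part in the result was not tested.

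Cxcl12 did not pass the test: its difference was 0.20 (95% confidence interval -0.11 to 0.50, limma adjusted p = 0.225), with 63.1 to 118 FPKM in arteries and 52.9 to 102 FPKM in kidneys. Cxcl13 was called higher in artery at 1.95 (SE 0.75, limma adjusted p = 0.0269), yet with a wide spread. Its arteries ran from 0.542 through a median of 1.41 to 45.8 FPKM, and its kidneys from 0.312 through 0.450 to 0.828 FPKM. Most of the artery level sat in 2 libraries, knockout 2 and wildtype 3. The call was lost without artery knockout 2 (1.51, limma adjusted p = 0.0593) and with quantile normalization (1.72, limma adjusted p = 0.0618). It was kept without wildtype 3 (1.35) and without both of these libraries (0.91, limma adjusted p = 0.0175), with a smaller difference each time. Ccr7, the receptor of Ccl19 and Ccl21 on T cells and mature dendritic cells, was higher in artery by 1.89 (SE 0.45, limma adjusted p = 0.00130), with 0.383 to 11.8 FPKM in arteries and 0.108 to 0.594 FPKM in kidneys. Cxcr4 was higher in artery by 1.45 (SE 0.29, limma adjusted p = 0.000310), with 2.46 to 11.4 FPKM in arteries and 0.942 to 2.49 FPKM in kidneys. Without the 5 libraries that stood apart, a choice made after seeing the data that left 3 knockout arteries and 1 wildtype artery, the differences were 0.98 for Ccr7 (limma adjusted p = 0.0286), 0.80 for Cxcr4 (limma adjusted p = 0.0130) and 0.79 for Cxcl13 (limma adjusted p = 0.126).

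The interferon-induced ligands of Cxcr3 split between the tissues. Cxcl9 and Cxcl10 were higher in artery and Cxcl11 was lower, although the genes lie close together on chromosome 14, all on the plus strand (rn7: Cxcl11 at 15689432 to 15692207, Cxcl10 at 15704772 to 15706969, Cxcl9 at 15722868 to 15727779). All bind Cxcr3 on activated T and NK cells. Their upstream windows are shown because neighbouring genes of a kind went opposite ways. They are again 250 bases up to the RefSeq start on the plus strand of GRCr8 (chr14:16006916-16007165, chr14:15988816-15989065 and chr14:15973478-15973727).
Cxcl9: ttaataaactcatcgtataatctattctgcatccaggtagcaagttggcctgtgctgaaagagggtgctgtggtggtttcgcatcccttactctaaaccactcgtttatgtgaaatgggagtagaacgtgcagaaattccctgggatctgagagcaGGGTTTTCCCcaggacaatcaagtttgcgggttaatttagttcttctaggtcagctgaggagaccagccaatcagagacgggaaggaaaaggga
Cxcl10: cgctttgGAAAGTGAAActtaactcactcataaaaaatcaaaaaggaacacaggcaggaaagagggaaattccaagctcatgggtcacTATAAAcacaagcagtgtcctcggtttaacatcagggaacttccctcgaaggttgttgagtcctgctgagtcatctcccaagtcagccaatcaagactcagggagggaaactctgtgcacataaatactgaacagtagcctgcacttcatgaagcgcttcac
Cxcl11: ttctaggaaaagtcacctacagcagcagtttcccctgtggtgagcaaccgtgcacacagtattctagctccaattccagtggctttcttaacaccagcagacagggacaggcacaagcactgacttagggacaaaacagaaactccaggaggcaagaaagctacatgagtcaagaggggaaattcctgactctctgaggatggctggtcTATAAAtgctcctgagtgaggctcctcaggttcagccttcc
Capitals mark an interferon-response-like motif (GAAA, 2 bases of any kind, GAAA) and an NF-kB-like motif (GGG, 2 bases of any kind, TT, 1 of any kind, CC), each on either strand, and TATAAA on the gene's strand; no matches of different motifs overlapped in the windows printed. RefSeq windows were found for 39 of the 52 genes. Of these, 2 (5.13%) held the interferon-response-like motif, Cxcl10 and Ccl19, against 3.41% of 33469 windows of all genes. The NF-kB-like motif stood in 8 (20.5%), against 4.36% of all windows, and TATAAA in 9 (23.1%), against 8.06%. A match is a description of the letters and not a binding site, and a window without a match may hold a similar sequence. The Cxcl10 and Cxcl11 windows both hold gggaaattcc, which the NF-kB-like letters used here do not match.

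Cxcl9 ran from 1.31 through a median of 2.55 to 4.27 FPKM in arteries, against 0, 0.101 and 0.369 FPKM in kidneys, and the tissues did not overlap. It was higher in artery by 2.32 (SE 0.20, limma adjusted p = 2.71e-08). Cxcl10 ran from 3.96 through 6.78 to 14.9 FPKM in arteries and from 2.45 through 4.58 to 5.45 FPKM in kidneys, and the tissues overlapped. Its difference was 0.64 (SE 0.21, limma adjusted p = 0.0123), and 0.50 (adjusted p = 0.0552) with median-of-ratios scaling, which ended the call; without the 5 libraries that stood apart it was 0.40 (adjusted p = 0.231). Cxcl11 ran from 1.11 through 1.80 to 2.76 FPKM in arteries and from 4.84 through 6.72 to 9.14 FPKM in kidneys, with no overlap. It was lower in artery by a difference of -1.57 (SE 0.16, limma adjusted p = 2.27e-07). Within libraries, Cxcl11 stood above Cxcl10 in 0 of 8 arteries and in 7 of 7 kidneys. The gene model of Art3, an ADP-ribosyltransferase on the opposite strand, spans Cxcl10 and Cxcl11 and averaged 92.3 FPKM in artery and 1.10 FPKM in kidney. The strandedness of the counting was not stated in the sources used here, so reads of Art3 and of these ligands cannot be told apart. Cxcr3 itself was low, at 0.0918 to 1.30 FPKM in arteries and 0.0548 to 0.550 FPKM in kidneys, and below the filter. The summed interferon response genes were 343 to 825 FPKM in arteries and 174 to 325 FPKM in kidneys. Of these genes 20 of 24 tested were called higher in artery, against 41.8% of all genes. Their part in the result was not tested.

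**Figure D3:**
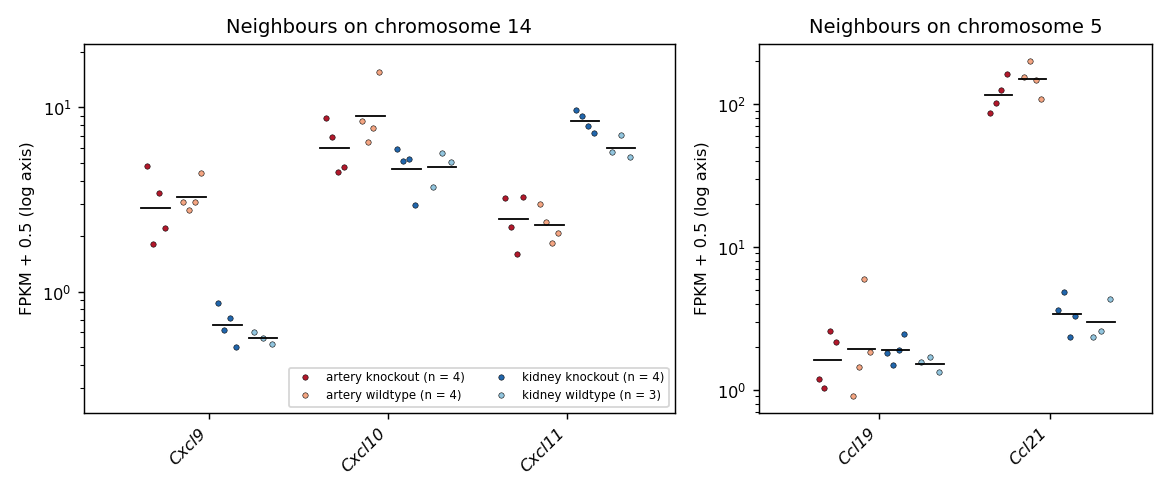
Neighbouring ligand genes with unlike tissue patterns, as FPKM + 0.5 on a log axis: Cxcl9, Cxcl10 and Cxcl11 (left) and Ccl19 and Ccl21 (right). Points are libraries and bars are means on the log scale. Cxcl9 and Ccl21 lie above the kidneys in each artery, Cxcl11 lies below, and Ccl19 overlaps.

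Among those abundant enough to test, ligands and receptors of monocytes, neutrophils and eosinophils were mostly higher in artery. Ccr1, a receptor of monocytes and neutrophils, ran from 3.65 through 5.18 to 6.94 FPKM in arteries and from 0.162 through 0.5998 to 0.965 FPKM in kidneys, a difference of 2.48 (SE 0.17, limma adjusted p = 1.64e-09). Cxcr2, the neutrophil receptor of the Cxcl1 group, held 1.68 to 5.96 FPKM in arteries and 0 to 0.109 FPKM in kidneys, a difference of 2.63 (SE 0.23, limma adjusted p = 3.81e-08). Neither receptor overlapped between the tissues. Ccl24 was higher in artery by 2.16 (SE 0.20), with 5.47 to 11.1 FPKM against 0.328 to 2.2 FPKM in kidney. Another eosinophil attractant, Ccl11, was higher by 1.65 (SE 0.15), with 0.661 to 2.28 FPKM in artery and 0 to 0.1005 FPKM in kidney, while their receptor Ccr3 stayed below the filter. Of the monocyte attractants, Ccl7 was higher in artery by 1.85 (SE 0.20) and Ccl6 by 1.45 (SE 0.20), and Cxcl14 by 2.07 (SE 0.21). The remaining 9 of the 21 genes higher in artery differed by 0.64 to 1.44, among them Ccl2, the main monocyte attractant, and its receptor Ccr2, both at 1.20. Ccr6, the receptor of Ccl20 on B cells and Th17 cells, was called at an adjusted p of 0.0434 with a difference of 1.34, and lost that call under 14 of 24 alternatives that tested it; without wildtype 3 the difference was 0.86. The summed macrophage and monocyte markers were 254 to 759 FPKM in arteries and 132 to 239 FPKM in kidneys. Of these markers 13 of 15 were called higher in artery, against 41.8% of all genes. Endothelial markers were called higher in 12 of 12 and fibroblast markers in 9 of 10. Of the neutrophil markers 6 of 6 tested were higher in artery, and 2 of 6 were called. The part of these lists in the chemokine differences was not tested.

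The 9 genes lower in artery included, beside Cxcl11, ligands of epithelia, both membrane-bound ligands and 2 receptors. Ccr10 held 0.408, 0.537 and 1.003 FPKM (lowest, median and highest) in arteries and 5.53, 6.64 and 7.39 FPKM in kidneys, a difference of -2.69 (SE 0.12, limma adjusted p = 1.13e-11). Cx3cl1 held 1.23, 2.47 and 3.94 FPKM in arteries and 12.5, 16.3 and 21.8 FPKM in kidneys, a difference of -2.52 (SE 0.16, limma adjusted p = 6.13e-10). Its receptor Cx3cr1 went the same way, at -1.06 (SE 0.24, limma adjusted p = 0.000723), and the tissues overlapped through artery wildtype 4. Cxcl16 held 16.2, 23.2 and 25.7 FPKM in arteries and 38.5, 56.6 and 60.1 FPKM in kidneys, a difference of -1.24 (SE 0.10, limma adjusted p = 7.67e-09). Ccl28, a ligand of Ccr10 made by mucosal epithelia, was listed at 0 in 5 of 8 arteries and lay between 1.10 and 3.11 FPKM in kidneys, a difference of -2.03 (SE 0.15). Ccl20, the mucosal ligand of Ccr6, differed by -1.37 (SE 0.23), Ccl27, the skin ligand of Ccr10, by -0.84 (SE 0.18), and Ccl4, a ligand made by T cells and macrophages, by -0.68 (SE 0.24). Low levels make the size of such differences depend on the pseudocount: that of Ccl28 ran from -3.79 with 0.1 to -1.38 with 1. Overlapping genes on the other strand limit Ccr10 (Cntnap1, 2.85 FPKM in artery and 7.48 in kidney), Cxcl16 (Zmynd15, 0.678 and 4.29) and, by 7 bases, Ccl27 (Il11ra1, 16.3 and 14.5).

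Ligands and their textbook receptors did not always share a tissue. Cx3cl1 and Cx3cr1 were both lower in artery, and so was Cxcl16, whereas its receptor Cxcr6, a receptor of resident T cells, was higher there (0.70, SE 0.19, limma adjusted p = 0.00374). Without the 5 libraries that stood apart Cxcr6 was no longer called (0.41, limma adjusted p = 0.147). Cxcr6 averaged 2.42 FPKM in artery and 1.31 FPKM in kidney and lies wholly inside the opposite-strand gene model of Fyco1, which averaged 12.7 FPKM in artery and 10.97 FPKM in kidney, so reads of the 2 genes cannot be told apart here. Cxcl16 exceeded Cxcr6 by 4.89 to 13.6 times in arteries and by 29.4 to 92.7 times in kidneys. Ccr10 and both of its ligands were lower in artery, with the overlap with Cntnap1 as a limit for Ccr10. Ccl5, a T cell product, did not pass (-0.18, 95% confidence interval -0.97 to 0.61). The 18 genes left out of the test for low levels were 12 ligands and 6 receptors, and include Ccl17, Ccl22 and their receptor Ccr4, Ccl1 and its receptor Ccr8, Xcl1 and Xcr1, and the neutrophil ligands Cxcl2, Cxcl3 and Cxcl6 with Cxcr1. Cxcl3 was listed at 0 in all arteries and Cxcr1 in all kidneys.

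In artery, Cxcl13 and several lymphoid receptors were high in the same 2 libraries, 1 of each genotype. Cxcl13 held 0.905, 21.8, 4.81 and 0.542 FPKM in knockout arteries 1 to 4, against 1.90, 0.928, 45.8 and 0.770 FPKM in wildtype arteries 1 to 4. Ccr6 held 0.522, 6.64, 1.17 and 0.561 FPKM in the knockout arteries, against 0.493, 0.0934, 13.0 and 0.822 FPKM in the wildtype arteries. Knockout 2 and wildtype 3 were thus the highest of their groups in both genes. Cxcr5, the Cxcl13 receptor of B and follicular helper T cells, held 1.03, 1.34, 0.832 and 1.19 FPKM in knockout arteries and 0.819, 1.09, 3.89 and 0.885 FPKM in wildtype arteries. The same libraries were the 2 highest arteries in 9 of the 32 chemokine genes tested in artery, against 7.43% of all genes. Among the 9 were Ccr6, Cxcr5, Ccr9, Cxcr4, Cxcl13 and Ccl17, and also Ccr10 and Ccl24. Wildtype 3 alone was the highest artery in 14 of the 32 genes, or 43.8%, against 13.9% of all genes. Cr2, the complement receptor of B cells and follicular dendritic cells, stood at 20.8 FPKM in knockout 2 and 34.8 FPKM in wildtype 3, and summed T and NK cell markers at 64.0 and 113 FPKM, while Fdcsp, a follicular dendritic cell product, was listed at 0 in all libraries. Ccl21 did not follow this pattern: knockout 2 held 100.5 FPKM and wildtype 3 held 146 FPKM, inside the range of the other arteries. Ccl19 and Ccr7 followed it only in wildtype 3, with 5.44 and 11.8 FPKM. Knockout 2 held 0.521 FPKM of Ccl19, and its 4.86 FPKM of Ccr7 lay below the 6.24 FPKM of wildtype 4. The part of the lymphocyte markers in the chemokine values was not tested.

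**Figure D4:**
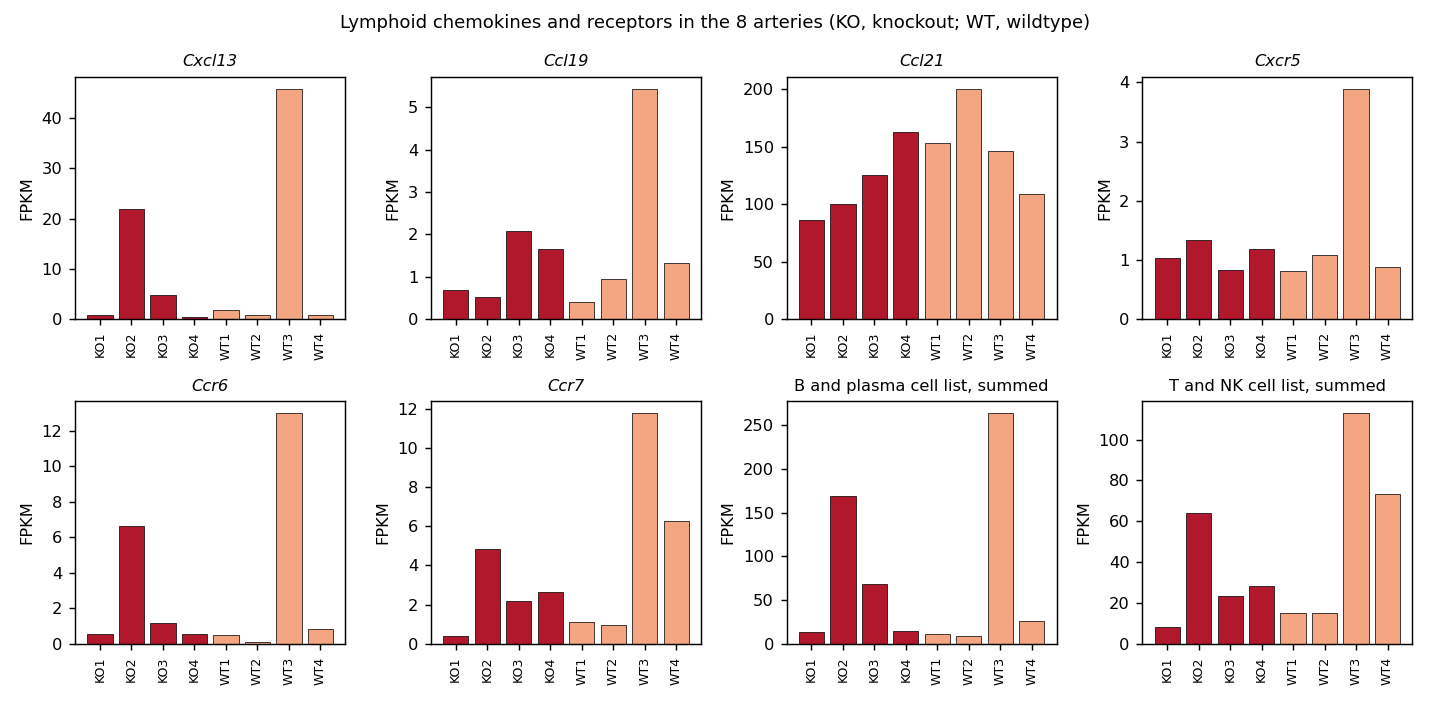
Bars give the FPKM of each of the 8 arteries (KO, knockout; WT, wildtype) for Cxcl13, Ccl19, Ccl21, Cxcr5, Ccr6, Ccr7 and, in the last panels, the summed B and plasma cell markers and T and NK cell markers. Knockout 2 and wildtype 3 are the highest arteries for Cxcl13 (21.8 and 45.8 FPKM) and Ccr6 (6.64 and 13.0 FPKM) but not for Ccl19, Ccl21 or Ccr7.

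In artery the knockout and wildtype libraries gave no chemokine gene past the test: 0 of the 32 tested were called by limma, as were 0 of all 16470 genes, which is 0% of them. At an unadjusted p under 0.05 there were 4 of 32, namely Ccr2, Cxcl14, Ccl27 and Cxcl16, against 5.24% of all genes. The 6 genes with the smallest p are given as values. Ccr2, the Ccl2 receptor of inflammatory monocytes, held 2.53, 1.99, 2.91 and 3.20 FPKM in knockout arteries, against 3.40, 3.54, 3.67 and 4.83 FPKM in wildtype arteries. Each knockout artery lay below each wildtype artery, an order shown by 0.953% of all genes and by no other chemokine gene; 0 chemokine genes lay wholly above (2.30% of all genes). The difference was -0.47 (SE 0.17, limma unadjusted p = 0.0189, adjusted p = 0.893). Cxcl14 held 4.0, 3.82, 6.54 and 6.59 FPKM in knockout arteries and 10.05, 14.1, 7.27 and 5.94 FPKM in wildtype arteries, a difference of -0.75 (SE 0.27, limma adjusted p = 0.893). Ccl27 held 0.709, 0.8291, 0.413 and 1.21 FPKM in knockout arteries and 0.326, 0.486, 0.135 and 0.315 FPKM in wildtype arteries, a difference of 0.64 (SE 0.24, limma adjusted p = 0.893). The groups overlapped for both genes. Cxcl16 held 16.6, 16.2, 25.3 and 19.8 FPKM in knockout arteries and 23.9, 24.4, 22.6 and 25.7 FPKM in wildtype arteries, a difference of -0.32 (SE 0.14, limma adjusted p = 0.893), and knockout 3 lay among the wildtype arteries. Cxcl10 held 8.26, 6.38, 3.96 and 4.23 FPKM in knockout arteries and 7.91, 5.96, 7.18 and 14.9 FPKM in wildtype arteries, and the groups overlapped. It differed by -0.59 (SE 0.30) and Ccr1 by -0.38 (SE 0.21), each with a limma adjusted p of 0.893. The Cxcl10 value was -0.32 without wildtype 4, whose 14.9 FPKM was the highest, and 0.00376 with the mean of the interferon response genes as a covariate.

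Most artery differences were negative. Of the 32 chemokine genes tested, 26 were lower in knockout arteries than in wildtype arteries, 15 of 20 ligands and 11 of 12 receptors, with a median of -0.21; over all genes 40.3% were lower, with a median of 0.04. Only those that passed a filter on level enter this count. Without wildtype 3 it was 18 of 31 lower with a median of -0.06, against 41.3% of all genes and a median of 0.04. With the interferon response covariate it was 16 of 32 with a median of -0.02. All genes moved as well, to 51.3% lower with a median of -0.01. With the B and plasma cell list as the covariate the chemokine count stayed at 26 of 32 with a median of -0.21, against 40.3% of all genes. That list was itself mixed between genotypes, with 9 of 14 lower, so its fit could move the genotype differences little. The T and NK cell list and the macrophage and monocyte list were not fitted as covariates.

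Beside the chemokine genes, marker lists of other cells leaned in both directions. Of the T and NK cell markers 16 of 16 tested were lower in knockout arteries, with sums of 8.42 to 64.0 FPKM in knockout and 14.9 to 113 FPKM in wildtype. Of the macrophage and monocyte markers 13 of 15 were lower, with sums of 254 to 492 FPKM in knockout and 269 to 759 FPKM in wildtype. Of the interferon response genes 23 of 24 were lower, with sums of 343 to 480 FPKM in knockout and 394 to 825 FPKM in wildtype. Lower too were 8 of 9 mast cell markers (median -0.50), 5 of 6 neutrophil markers (median -0.74) and 10 of 10 erythrocyte markers (median -0.90). Over all genes 40.3% were lower. The erythrocyte sums were 4000 to 35385 FPKM in knockout and 3844 to 113486 FPKM in wildtype, with the highest in wildtype 4. B and plasma cell markers were mixed, with 9 of 14 lower and a median of -0.13, and of the dendritic cell markers 3 of 7 were lower, with a median of 0.08. Adipocyte markers were higher in knockout arteries in 12 of 12 tested with a median of 0.23, and mesothelial markers in 7 of 7 with a median of 0.88. No gene of these lists was called, and their part in the chemokine differences was not tested. The interferon covariate fit above cannot separate these genes from genotype, since the interferon response genes were themselves mostly lower in knockout arteries.

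In kidney limma called 0 of the 23 chemokine genes tested and 0 of all 15444 genes, 0% of them; at an unadjusted p under 0.05 there were 2 of 23, Cxcl11 and Cxcl16, against 1.41% of all genes. Cxcl11 held 9.14, 8.47, 7.37 and 6.72 FPKM in knockout kidneys, against 5.22, 6.54 and 4.84 FPKM in wildtype kidneys, a difference of 0.48 (SE 0.16, limma unadjusted p = 0.0124, adjusted p = 0.999). Cxcl16 held 60.1, 57.5, 56.6 and 58.3 FPKM in knockout kidneys, against 47.1, 51.2 and 38.5 FPKM in wildtype kidneys, a difference of 0.36 (SE 0.14, limma unadjusted p = 0.0301, adjusted p = 0.999). Each knockout kidney lay above each wildtype kidney in these genes, as in 1.54% of all genes, and 0 chemokine genes lay wholly below (1.01% of all genes). The library labelled wildtype 3 held the lowest value of each, and without it the differences were 0.40 and 0.24. Ccr2 held 1.90, 2.63, 0.654 and 1.57 FPKM in knockout kidneys, against 0.930, 0.861 and 0.508 FPKM in wildtype kidneys, a difference of 0.72 (SE 0.33, limma adjusted p = 0.999). Ccl4 held 1.21, 0.330, 0.394 and 0.414 FPKM in knockout kidneys and 1.29, 0.936 and 0.733 FPKM in wildtype kidneys, a difference of -0.50 (SE 0.29, limma adjusted p = 0.999). Ccl24 and Cxcl12 differed by 0.55 (SE 0.33) and 0.29 (SE 0.19), each with a limma adjusted p of 0.999, and both by 0.11 without wildtype 3.

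Most kidney differences were positive. Of the 23 genes tested, 17 were higher in knockout kidneys, with a median of 0.23, against 60.2% of all genes and a median of 0.04. Without wildtype 3 the count was 16 of 24 and the median 0.11, against 50.5% of all genes and a median of 0.00. Without knockout 2 it was 14 of 22 and 0.11, against 52.9% of all genes and 0.01. With array weights it was 12 of 23 and 0.03, against 58.6% of all genes and 0.04. Wildtype 3 was the lowest kidney in 13 of the 23 genes (56.5%), against 32.6% of all genes. Knockout 2 was the highest kidney in 11 of the 23 genes (47.8%), against 37.7% of all genes. It was not counted among the libraries that stood apart. Its summed proximal tubule markers were 4051 FPKM, against 6082 to 7904 FPKM in the other kidneys. Knockout 1 and knockout 2 were the 2 highest kidneys in 7 chemokine genes, among them Cx3cr1, Ccr1, Ccr2, Ccl2 and Cxcl11, an order shown by 13.3% of all genes. The same libraries held summed tubule injury markers of 948 and 706 FPKM, against 288 and 406 FPKM in the other knockout kidneys and 197 to 410 FPKM in wildtype kidneys. Macrophage and monocyte markers were higher in knockout kidneys in 10 of 12 tested, against 60.2% of all genes. Their sums were 158 to 239 FPKM in knockout and 132 to 228 FPKM in wildtype, with the lowest in wildtype 3. Of the interferon response genes 11 were higher and 13 lower, with a median of -0.05, and endothelial markers were higher in 2 of 12. The part of these lists in the chemokine values was not tested.

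The test of whether the genotype difference itself differed between artery and kidney called 0 of 34 chemokine genes and 0 of all 16856 genes (0%). At an unadjusted p under 0.05 there were 3, namely Cxcl16, Ccr2 and Ccr1, against 4.39% of all genes. The artery difference minus the kidney difference was -0.68 for Cxcl16 (SE 0.19, limma unadjusted p = 0.00284, adjusted p = 0.943). For Ccr2 it was -1.19 (SE 0.37, limma unadjusted p = 0.00592, adjusted p = 0.943), and for Ccr1 -0.73 (SE 0.34, limma adjusted p = 0.943). Of the 20 genes tested in both tissues, 13 were lower in knockout arteries and higher in knockout kidneys, 1 the reverse, 4 lower in both and 2 higher in both. The share of all genes with each of these orders was not computed. The interaction was negative in 29 of 34 genes with a median of -0.40, against 50.4% of all genes and a median of -0.003. Without wildtype 3 and knockout 2 of artery it was negative in 26 of 31 genes with a median of -0.36, against 51.1% of all genes and -0.01. Without the 5 libraries that stood apart it was negative in 14 of 31 with a median of 0.04, against 54.9% of all genes and -0.03. The values of Ccr2, Cxcl16 and Ccr1 were then -0.82, -0.50 and -0.03. That alternative sets the knockout arteries against 1 wildtype artery, so its values rest on a single library.

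**Figure D5:**
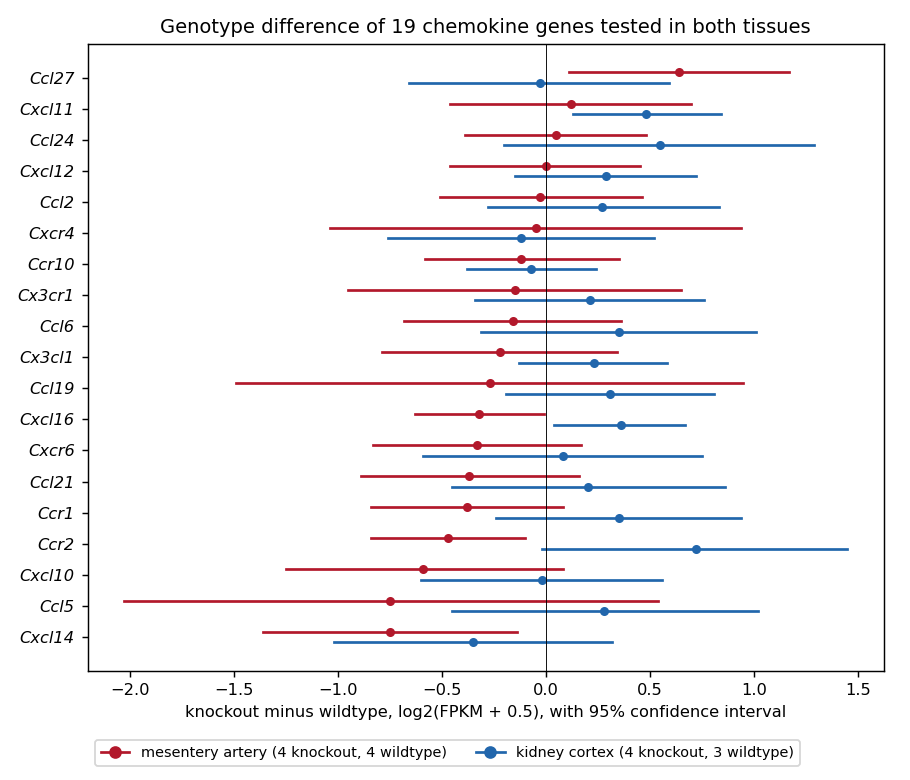
Knockout minus wildtype difference of 19 chemokine genes tested in both tissues, as log2(FPKM + 0.5) with the 95% confidence interval from limma. Red is artery (4 knockout, 4 wildtype) and blue is kidney (4 knockout, 3 wildtype). In 12 of these genes the artery value lies below 0 and the kidney value above it, and no gene passed the adjusted test in either tissue. The share of all genes with this order was not computed.

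Genes that handle or transmit chemokine signals were mostly higher in artery, and none passed the test between genotypes. Of 10 atypical receptors and related genes, 9 were tested between tissues; 8 were called higher and 1 lower in artery, against 41.8% of all genes called higher and 35.2% lower. Ackr4, a scavenger of Ccl19 and Ccl21, was higher in artery by 5.86 (SE 0.21), with 19.0 to 66.1 FPKM in arteries and 0.166 to 0.364 FPKM in kidneys. Ackr1, the venular and red cell receptor that binds many inflammatory ligands, was higher, with 12.4 to 20.7 FPKM in arteries and 0 to 0.126 FPKM in kidneys. Ackr2, a scavenger of inflammatory ligands, was higher by 3.51 (SE 0.13), and Ackr3, the scavenger of Cxcl12, by 2.62 (SE 0.19). Mif, a cytokine that also binds Cxcr2 and Cxcr4, was lower by a difference of -2.94 (SE 0.17). Of 36 signalling genes tested, 30 were called higher and 2 lower in artery; Elmo1, an adaptor of Rac activation, differed by 2.69 (SE 0.16) and Dpp4, a peptidase that trims chemokines, by -4.58 (SE 0.21). Of 16 tested genes of NF-kB signalling and cytokines, 13 were called higher and 0 lower; the share called in either direction was 77.0% over all genes. Between genotypes limma called 0 of the genes tested from these lists, 61 in artery and 55 in kidney. At an unadjusted p under 0.05 there were Nfkbia, an NF-kB inhibitor, at -0.35 (SE 0.12) and Elmo1 at -0.24 (SE 0.10) in artery, 2 of 61 against 5.24% of all genes, and 0 of 55 in kidney, against 1.41% of all genes.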

How the data were processed

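RNA-seq of total RNA gave the deposited table of 40694 gene models in 15 libraries; the 34357 with an identifier were used. Its values are FPKM, per the deposited header, computed by the authors. Per the submitters' processing notes the tools were Trim Galore 0.6.2, HISAT2 2.2.1 and DESeq2 1.46.0 and the build rn7, with no role given for each. Read numbers and strandedness are not given in the sources used here, and no whole-read steps were found in the values, so depth and counting error are unknown and no count test was run. Of the value columns, 1 (coverage) named no sample and was not used.

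log2(FPKM + 0.5) was tested with limma 3.58.1 (trend and robust moderation, two-sided) in R 4.3.3, keeping genes that averaged 0.5 FPKM or more in the libraries compared, with Benjamini-Hochberg adjustment over all genes and a threshold of 0.05. Genotypes were compared within each tissue, and tissues and the interaction in 1 fit of the 4 groups. The procedure was tested on simulated data. Figures used matplotlib 3.10.9 in Python 3.11.15. Upstream windows came from RefSeq on GRCr8, matched by symbol for 39 of 52 genes.

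Genes named with values were the 6 with the smallest p in each genotype comparison, those called between tissues (up to 12 each way), the 8 most abundant of each tissue and textbook ligand and receptor partners. The chemokine genes and the marker and pathway lists were chosen with earlier results of these data known. Other pseudocounts, filters, scalings, moderation, weights, a replicate block, covariates and left-out libraries were tried. Same-numbered libraries were not taken as pairs. Values of 1 gene that enters the counts are not reported here.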

Additional observations from a re-analysis of the deposited data

Results flagged for a closer look

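In groups of 4 libraries, 87 chemokine gene and group combinations were examined for a library far from the other members of its group by Dixon's criterion. Such a library was found in 6 combinations, against 4.35 combinations that chance gives at 1 in 20. Ccl17, a ligand of Ccr4, stood at 1.18 FPKM in artery knockout 2, with 0.167 to 0.274 FPKM in the other knockout arteries. In artery wildtype 3 Cxcr5 stood at 3.89 FPKM, with 0.819 to 1.09 FPKM in the other wildtype arteries, and Cxcr6 at 4.62 FPKM, with 2.04 to 2.34 FPKM in the others. These are the arteries with the highest B and plasma cell markers. Cx3cr1 stood at 3.48 FPKM in artery wildtype 4, the library rich in haemoglobin, with 0.861 to 1.05 FPKM in the other wildtype arteries. Cxcl1, a neutrophil attractant, stood at 2.15 FPKM in artery wildtype 1, the library with intestinal markers, with 0.722 to 0.851 FPKM in the others. Ccl4 stood at 1.21 FPKM in kidney knockout 1, with 0.330 to 0.414 FPKM in the other knockout kidneys.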

How the results depend on the processing

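The number of chemokine genes called between genotypes was 0 in each tissue and 0 for the interaction under each alternative that was run. Over all genes, the artery count was 1 with a pseudocount of 0.1 and 1 with the B and plasma cell list as a covariate, against 0 as reported, and 0 to 1 without each replicate in turn (1 without artery wildtype 2 or artery knockout 3). The kidney count over all genes was 282 with array weights and 1 with 1 fit over both tissues, and 0 to 1 without each replicate in turn (1 without kidney wildtype 1); the cause was not tested. Between tissues, 21 to 30 chemokine genes were called; the filter at 1 FPKM gave 21 of 25 tested, since fewer genes were tested. Of 1062 values of single genes under alternatives, 1040 kept their direction and side of the threshold, and 21 kept direction and lost the call. The remaining 1 reversed: Cxcl10 between genotypes in artery, at 0.00376 with the interferon covariate. Genes that were not called as reported could not lose a call. A called gene that a filter removed gave no value and was not counted as lost. Of the 21 lost calls 14 were of Ccr6; the other genes were Cxcl13, Cxcl10, Cxcr6 and Ccr9, with adjusted p of 0.0519 to 0.231 from limma. Leaving out the 5 libraries that stand apart, chosen after seeing the data, gave 24 of 31 tested, with 1 wildtype artery left. Within a tissue, same-numbered knockout and wildtype libraries correlated at -0.342 to 0.321 in artery and -0.008 to 0.273 in kidney. The same-numbered library was the best match for artery 1, artery 4 and kidney 3 and not for the other numbers. Arteries were not compared with kidneys in this way, so pairing was not excluded. With the replicate block, 0 chemokine genes were called between genotypes in either tissue and for the interaction, and 30 between tissues. In artery, 0 chemokine genes had an unadjusted p under 0.05 without wildtype 3 and knockout 2, against 4 with them. The number of libraries limits what could be called, and depth could not be assessed.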
